A study of Mus musculus with 17 samples.

Results

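The mRNAs of the 7 subunits of the NMDA receptor were followed in the aging mouse hippocampus. The members were taken as a gene family by symbol (Grin1, Grin2a, Grin2b, Grin2c, Grin2d, Grin3a and Grin3b), which makes 7 of the 38355 genes in the count files, and the rule for membership uses no measured value. The NMDA receptor is a glutamate-gated channel of 4 subunits that lets calcium into the neuron when glutamate and a co-agonist, glycine or D-serine, are bound and depolarization has removed a magnesium ion from the pore. Every receptor holds the obligatory subunit GluN1 (Grin1), and its partners, mostly GluN2 subunits, set how fast it closes, how strongly magnesium blocks it and which signalling proteins it binds. In the forebrain GluN2B (Grin2b) dominates early in life and GluN2A (Grin2a) joins it with maturation, and the receptor is best known in the hippocampus for its part in synaptic plasticity and memory.

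All mice were wild-type C57BL/6J animals without treatment, and polyA RNA came from hippocampus dissected by hand. Of the 17 libraries, 5 from mice of 3 months (3M) and 6 from mice of 24 months (24M) were sequenced single-end, while 3 further 3M libraries and 3 from mice of 29 months (29M) were sequenced paired-end in a separate experiment. The 29M animals had been bought at 24 months of age and kept on in the holding rooms of the laboratory. Each aged group was set against the young libraries sequenced in the same way, and age is the only label that separates the groups of a comparison.

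Between 9213474 and 28438296 reads per library were assigned to genes, and depth differed with age in the single-end experiment (19144461 to 28438296 reads at 3M, 9213474 to 19756411 at 24M). The 24M libraries of replicates 1 and 4 differed from each other by less than the sampling noise, with a variance ratio of 0.406 where the closest of the other 135 pairs gave 1.23, and they were counted as 1 sample, so that n = 5 at 24M. Where replicate 1 or replicate 4 alone was left out, the other stood for the pair, so such a fit lost no sample and kept n = 5. Markers of hippocampal fields were present in every library, with summed levels of at least 523 counts per 1000000 gene counts (CPM) for dentate granule cells, 666 for CA1 and 879 for CA3 pyramidal cells. The 3M single-end library of replicate 4 stood apart with 756 CPM over 12 striatal markers, while the other 16 libraries held 242 to 310 CPM. Differences of single members at 24M are therefore given with and without this library where it changes them, while shares include it unless a library is said to be left out.

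The 7 genes lie on 7 chromosomes, and the coding sequences of the other 6 come, in sum, closest to that of Grin1 in a stretch that codes for the end of the membrane segment named M3, next to the gate of the channel. The stretch is shown to let the obligatory subunit be compared with its partners at the place where they resemble it most. A search of coding sequence within single exons for the 48 bases with the fewest differences from Grin1, summed over the other 6 members, placed it in the same reading frame in all 7 genes. The sequences are from GENCODE M21 transcripts (GRCm38, coding strand, 5′ to 3′), 5 of the 7 are printed, and capitals mark the 21 positions at which all 7 members carry the same base.
Grin1 (exon 15, chr2:25297199-25297246, minus strand): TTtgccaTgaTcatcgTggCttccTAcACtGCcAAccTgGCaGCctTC
Grin2a (exon 10, chr16:9653447-9653494, minus strand): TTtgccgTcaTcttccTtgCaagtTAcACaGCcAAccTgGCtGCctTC
Grin2c (exon 11, chr11:115253749-115253796, minus strand): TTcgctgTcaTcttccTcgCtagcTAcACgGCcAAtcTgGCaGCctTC
Grin3a (exon 3, chr4:49770470-49770517, minus strand): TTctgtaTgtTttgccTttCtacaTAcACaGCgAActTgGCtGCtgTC
Grin3b (exon 3, chr10:79974615-79974662, plus strand): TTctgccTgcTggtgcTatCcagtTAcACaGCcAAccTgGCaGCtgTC

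In this window Grin2a and Grin2c each differ from Grin1 at 11 of 48 bases, and the GluN3 genes at 18 (Grin3b) and 19 (Grin3a). No window of 50 bases in the longest coding transcript of a member was found in that of another member, and the longest run of identical coding bases in any pair was 34 (Grin2b and Grin2c). Windows shared with genes outside the family were more frequent. They made up 23.6% of Grin3b (the Tmem259 gene on the opposite strand), 19.5% of Grin1 (its antisense RNA Grin1os), 14.3% of Grin2a (nearly all of them the predicted gene Gm7328) and 9.29% of Grin2d (the antisense RNA Gm45441), against at most 0.908% of Grin2b, Grin2c and Grin3a. The library kit as named does not say that strand was kept, so reads in the overlaps at Grin3b, Grin1 and Grin2d cannot be told apart by strand. Gm7328 does not overlap Grin2a, so its windows are sequence found at another place. Grin1os was counted with 1.49% to 4.09% of the reads of Grin1, whereas Tmem259 held 970 to 3032 reads beside 0 to 12 of Grin3b. Gm45441 is not among the genes in the count files, so its reads cannot be set beside those of Grin2d.

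Levels between genes were compared per kilobase (kb) of annotated exon, since the exons of a member add up to between 3.296 kb (Grin3b) and 24.842 kb (Grin2b). In the 3M single-end group Grin1 stood highest at 46.3 ± 2.74 CPM per kb (SD, n = 5). Grin2c followed at 10.01 ± 1.40, Grin2b at 7.86 ± 1.14, Grin3a at 5.98 ± 1.21, Grin2d at 4.03 ± 0.44 and Grin2a at 3.50 ± 0.57 CPM per kb. The ranges of the 5 libraries overlapped between the neighbours Grin2b and Grin3a and between Grin2d and Grin2a, while Grin1, Grin2c and Grin2b did not overlap in this order. Grin3b, an accessory subunit best known from motor neurons, was at 0.0795 ± 0.0311 CPM per kb with 3 to 12 reads per library. In the 3M paired-end group the order was Grin1 (41.5), Grin2c (9.99), Grin2b (8.66), Grin2a (5.72), Grin3a (5.67) and Grin2d (3.34 CPM per kb, mean of 3), where Grin2c overlapped Grin2b and Grin2a overlapped Grin3a.

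The order among the GluN2 genes depended on the length used. Untranslated exons make up 82.1% of the annotated exon length of Grin2b and 75.5% of that of Grin2a but only 26.2% of that of Grin2c, the subunit known from cerebellar granule cells and glia. Per kb of annotated exon Grin2c held 12.9% ± 1.27 of the summed level of the 7 subunits in the 3M single-end group and Grin2b 10.1% ± 1.28, whereas per kb of coding exon Grin2b held 17.4% ± 1.93 and Grin2c 5.37% ± 0.60 (SD, n = 5). Comparisons of one gene between ages carry no length term and are free of this choice.

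**Figure D1:**
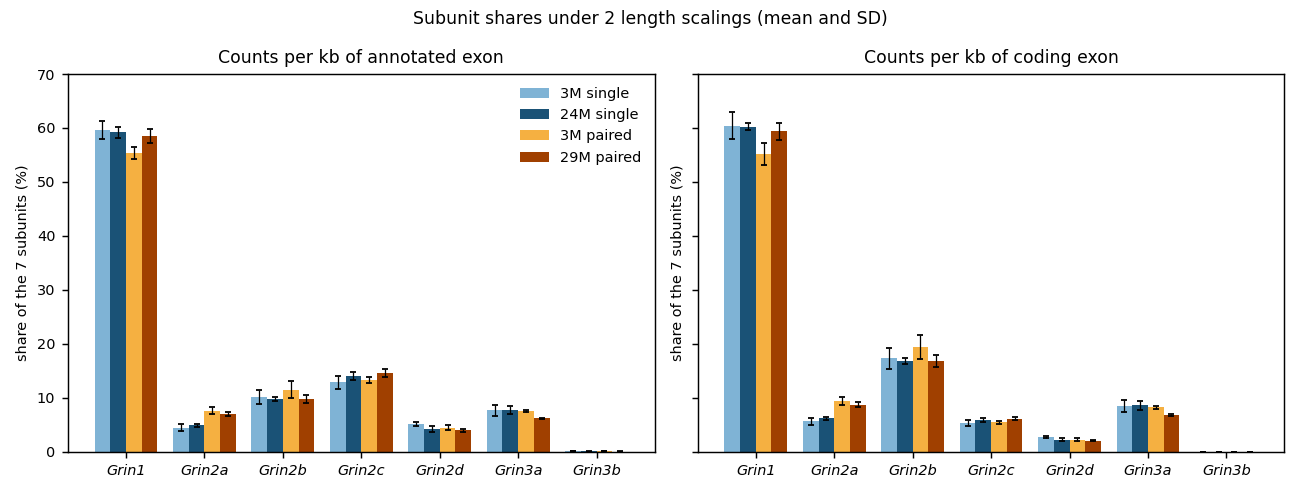
Share of each subunit in the summed level of the 7 subunits, in percent (bars: mean of the samples of a group, lines: SD; n = 5, 5, 3 and 3), for counts per kb of annotated exon (left) and per kb of coding exon (right). Grin1 holds 55.2% to 60.4% in every group under both scalings, while Grin2b and Grin2c change places. With no length, or per kb of the longest coding transcript, the 3M single-end share of Grin1 lies outside this range.

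Per kb of annotated exon the mean shares of the 7 subunits moved by at most 1.15 points at 24M (Grin2c) and 3.10 points at 29M (Grin1). Grin1 held 59.6% ± 1.69 at 3M and 59.2% ± 1.04 at 24M, and the groups overlapped for each of the 7 shares. With 1 library left out the change of Grin1 at 24M ran from -0.82 to 0.29 points. The widest movements at 24M were those of Grin2c, from 12.9% ± 1.27 to 14.0% ± 0.79, and of Grin2d, from 5.19% ± 0.38 to 4.26% ± 0.51. In the paired-end experiment the 29M samples all lay above the 3M samples in the share of Grin1 (55.4% ± 1.102 against 58.5% ± 1.34) and of Grin2c (13.3% ± 0.60 against 14.6% ± 0.65), and all below in that of Grin3a (7.57% ± 0.15 against 6.17% ± 0.17, n = 3). The share of Grin2b went from a mean of 11.5% at 3M to 9.80% at 29M, with overlapping groups. Within the 4 GluN2 genes the share of Grin2c was 36.1% ± 2.48 at 3M and 41.3% ± 0.40 at 29M, again with all 29M samples above. Grin2b went from 31.2% to 27.7% there, with overlap. At 24M, also with overlap, Grin2c went from 39.4% to 42.5% of the GluN2 genes and Grin2d from 15.9% to 12.9%. Shares add up to a whole, so a smaller share of one subunit raises the others, and they were not tested. Full separation is frequent with 3 against 3 samples: in level, 19.6% of all genes tested at 29M had all aged samples above or all below the 3M samples.

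Grin1 is the subunit without which no receptor reaches the membrane. Its level was 479, 453, 467, 428 and 416 CPM in the 3M single-end libraries 1 to 5, and 387 (replicates 1 and 4 together), 366, 409, 404 and 389 CPM in the 24M samples 1, 2, 3, 5 and 6. All 24M samples lay below all 3M samples, although the gap between the groups was only 416 against 409 CPM. Grin1 fell by 0.19 on the log2 scale (SE 0.05; edgeR quasi-likelihood test, adjusted p = 0.0462), which passes the adjusted p of 0.05 and not the fold threshold of 0.5 on the log2 scale that was also asked of a called gene. The adjusted p was 0.0545 without 3M replicate 4, and it ran from 0.0155 to 0.128 over the 11 fits with 1 library left out. Of these fits 3 (without 3M replicate 5, 24M replicate 3 or 24M replicate 4) stayed at or under 0.05. With both libraries of the 24M pair left out the adjusted p was 0.103, and with the replicate number as a block it was 0.196. In the paired-end experiment Grin1 stood at 408, 399 and 401 CPM at 3M and at 401, 387 and 425 CPM at 29M, with a log2 difference of 0.01 (SE 0.04, adjusted p = 0.895). The 3M values lay within the range of the 29M values.

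GC content moved with the size of the differences at 24M. The median log2 difference over all genes tested went from 0.14 in genes whose longest transcript has under 45% GC to -0.14 in genes of 60% or more, while at 29M it ran the other way, from -0.02 to 0.04. The members cover the whole of this range, with Grin2a at 44.8%, Grin2b at 45.7%, Grin3a at 49.2%, Grin1 at 59.4%, Grin2c at 62.1% and Grin2d at 65.0% GC. With offsets for GC content and length the 24M difference of Grin1 was -0.07 (adjusted p = 0.481) and that of Grin2c turned from -0.06 to 0.07 (adjusted p = 0.595). The offsets take away any age difference that follows GC content, whatever its origin, so that this part cannot be told apart.

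**Figure D2:**
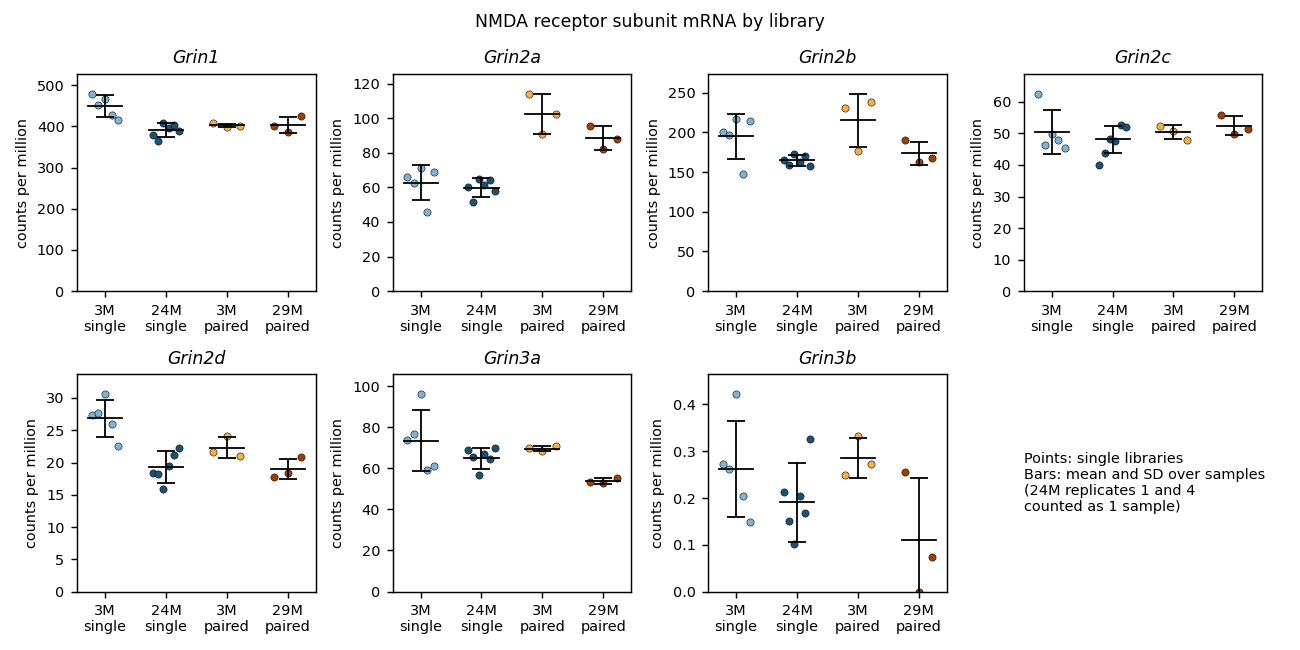
Levels of the 7 subunits in CPM (y axis, from 0) in each of the 17 libraries (points), with mean and SD over samples (black), for 3M and 24M single-end and 3M and 29M paired-end groups. Grin2d at 24M and Grin3a at 29M lie below all 3M libraries of their own type, and Grin2a differs more between the library types than between ages.

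Grin2a codes for GluN2A, which gives the receptor fast closing. In the 3M single-end libraries 1 to 5 it was at 65.9, 62.4, 71.2, 45.5 and 68.9 CPM and in the 24M samples 1, 2, 3, 5 and 6 at 60.6, 51.4, 64.7, 64.2 and 58.1 CPM. The groups overlapped, with the lowest value of all in 3M replicate 4, and the log2 difference was -0.06 (SE 0.11, adjusted p = 0.752), or -0.16 without that library (adjusted p = 0.216). It was -0.01 without 3M replicate 3 (adjusted p = 0.972) and also without 24M replicate 2 (adjusted p = 0.968). The paired-end libraries gave 114, 90.9 and 103 CPM at 3M and 95.5, 82.0 and 87.8 CPM at 29M, a log2 difference of -0.21 (SE 0.08, adjusted p = 0.183) with overlapping groups. Without 3M paired-end replicate 2, the lowest 3M library, it was -0.30 with an adjusted p of 0.0365, and without 3M paired-end replicate 1, the highest, it was -0.10 (adjusted p = 0.453). At the same age Grin2a was 1.63 times higher in paired-end than in single-end libraries, and no 3M library of one type overlapped those of the other. Of the other members only Grin1 showed such a separation, with a ratio of 0.897. Reads that matched more than 1 place made up 22.9% to 26.1% of all reads listed in the 3M single-end files and 11.4% to 12.4% in the 3M paired-end files. Grin2a shares 14.3% of its windows of 50 bases with other genes, nearly all with Gm7328. The part of such reads in the level of Grin2a was not tested.

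Grin2b codes for GluN2B, the slowly closing subunit that binds CaMKII. It was at 201, 197, 217, 147 and 215 CPM in the 3M single-end libraries 1 to 5 and at 164, 159, 173, 170 and 158 CPM in the 24M samples 1, 2, 3, 5 and 6. Of the 5 3M libraries 4 lay above all 24M samples, while 3M replicate 4 lay below all of them. The log2 difference was -0.24 (SE 0.09, adjusted p = 0.111), and without 3M replicate 4 it was -0.33 (SE 0.05, adjusted p = 0.00784). That was 1 of 11 fits with 1 library left out, and the others did not pass (adjusted p up to 0.228). With 3M replicate 4 in, offsets for GC content and length gave -0.29 (adjusted p = 0.0486). Grin2b was at 231, 177 and 238 CPM in the 3M paired-end libraries and at 190, 162 and 168 CPM at 29M, with 2 of 3 29M samples below all 3M samples. The log2 difference was -0.30 (SE 0.09, adjusted p = 0.0976). Without 3M replicate 2, the lowest 3M library, it was -0.44 (adjusted p = 0.000980). The other fits with 1 library left out did not pass (adjusted p up to 0.297), with -0.23 without 3M replicate 1 or 3. With all libraries in, the offsets for GC content and length gave -0.30 (adjusted p = 0.0285), and both differences that passed were short of the fold threshold.

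Grin2c showed no difference that passed a test. It was at 62.6, 46.3, 49.97, 47.9 and 45.3 CPM at 3M and at 43.9, 43.8, 48.3, 52.5 and 51.9 CPM at 24M (log2 difference -0.06, SE 0.09, adjusted p = 0.697). In the paired-end libraries it was at 52.4, 50.6 and 48.01 CPM at 3M and 55.7, 49.9 and 51.5 CPM at 29M (log2 difference 0.06, SE 0.06, adjusted p = 0.649). The groups overlapped in both experiments.

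Grin2d, which codes for the very slowly closing GluN2D found in adult hippocampus mainly in interneurons, had the largest difference of the family at 24M. It was at 27.4, 27.7, 30.6, 26.0 and 22.6 CPM in the 3M libraries 1 to 5 and at 18.9, 18.2, 15.9, 21.2 and 22.3 CPM in the 24M samples 1, 2, 3, 5 and 6. All 24M samples lay below all 3M samples, the closest being 22.3 against 22.6 CPM. Grin2d fell by 0.48 on the log2 scale (SE 0.10, adjusted p = 0.0175), a level 0.717 times that at 3M, which is just short of the fold threshold of 0.5. The fold threshold was passed as well when 3M replicate 5 (-0.54), 24M replicate 5 (-0.53) or 24M replicate 6 (-0.52) was left out, and the adjusted p was lost without 24M replicate 2 (adjusted p = 0.0580). It held without 3M replicate 4 (-0.49, adjusted p = 0.0308) and, at -0.32, with offsets for GC content and length (adjusted p = 0.0233). With the replicate number as a block it was lost, alone (-0.53, adjusted p = 0.128) and with the offsets (-0.34, adjusted p = 0.110). In the paired-end libraries Grin2d was at 21.6, 24.1 and 21.04 CPM at 3M and at 17.8, 18.4 and 20.8 CPM at 29M. The 29M samples all lay below, with 20.8 against 21.04 CPM at the border, and the log2 difference of -0.22 did not pass (SE 0.08, adjusted p = 0.185). With the offsets for GC content and length the 29M difference was -0.31 (adjusted p = 0.0504). It was -0.30 with the offsets and the block (adjusted p = 0.0415).

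Grin3a codes for GluN3A, which lowers calcium entry and magnesium block and is known for its peak in young animals. Its difference was the clearest of the family at 29M, where it was at 53.4, 53.0 and 55.5 CPM against 69.9, 68.2 and 70.7 CPM in the 3M paired-end libraries. All 29M samples lay below all 3M samples, and the gap of 68.2 against 55.5 CPM was wide beside the SD of 1.26 and 1.37 CPM within the groups. Grin3a fell by 0.36 on the log2 scale (SE 0.05, adjusted p = 0.00228), to 0.780 times the 3M level, past the adjusted p and short of the fold threshold. The adjusted p held in each of the 6 fits with 1 library left out (0.00256 to 0.0232) and was lost when all 4 groups shared 1 estimate of the spread (-0.36, adjusted p = 0.327). In the single-end libraries Grin3a varied more, at 73.9, 76.9, 96.1, 59.2 and 61.2 CPM at 3M against 67.8, 65.3, 56.6, 64.5 and 70.01 CPM at 24M. The groups overlapped (log2 difference -0.18, SE 0.11, adjusted p = 0.335), also without 3M replicate 4 (-0.25, adjusted p = 0.180), and without 3M replicate 3, the highest library, the difference was -0.06 (adjusted p = 0.711).

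Grin3b was too low to be tested in either experiment. Its reads numbered 6, 5, 12, 4 and 3 at 3M and 3, 2, 2, 3, 3 and 3 in the 6 libraries at 24M, and 3, 5 and 3 at 3M and 3, 0 and 1 at 29M. No difference was detectable at this depth.

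**Figure D3:**
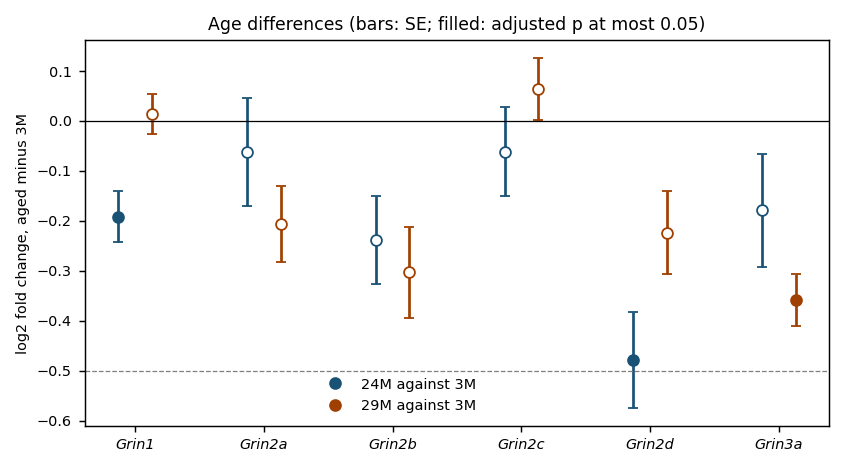
Log2 fold change of the 6 tested subunits (y axis, aged minus 3M; bars: SE) at 24M (blue) and 29M (brown); filled points have an adjusted p at or under 0.05 and the dashed line marks the fold threshold of -0.5. Grin1 and Grin2d at 24M and Grin3a at 29M are filled, and none lies beyond the line.

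Counted over the family, none of the 6 tested members was called at either age by adjusted p and fold together, where 1.98% of all 15683 genes tested were called at 24M (0.638% lower) and 1.45% of 15097 at 29M (0.113% lower). By adjusted p alone 2 of 6 members passed at 24M, both lower, where 5.58% of all genes passed in either direction and 2.37% lower, and 1 of 6 at 29M, also lower, where 2.99% passed and 0.662% lower. By an unadjusted p under 0.05 it was 3 members at 24M, where 26.1% of all genes passed, and 4 at 29M, where 17.3% passed. At each age 2 of the 6 had all aged samples below all 3M samples, beside 3.59% of all genes at 24M and 10.5% at 29M (6.53% and 19.6% with all aged samples on either side). The fitted difference was below 0 in 6 of 6 members at 24M, as in 50.8% of all genes, and in 4 of 6 at 29M, as in 50.6%. The median log2 difference of the 6 members was -0.19 at 24M and -0.21 at 29M, with medians of -0.003 and -0.002 over all genes. In bulk tissue fewer cells of a type and less RNA per cell cannot be told apart.

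A test of whether the age differences at 29M and 24M were unequal was made in a single fit of all 4 groups. No member passed it, and the smallest adjusted p was that of Grin1 (difference of 0.20, SE 0.07, adjusted p = 0.394). None of the 16055 genes tested passed (0% called), although 10.4% had an unadjusted p under 0.05, Grin1 among them, and DESeq2 passed 1 gene. Without 3M single-end replicate 5 the test passed 92 genes, no member among them. So the separate results for Grin1, Grin2d and Grin3a are not shown to be particular to either age.

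The ratio of Grin2b to Grin2a, which changes during postnatal development, was compared within each library, where depth cancels. Per kb of annotated exon it was 2.20, 2.28, 2.20, 2.34 and 2.25 in the 3M single-end libraries 1 to 5. In the 24M samples with replicates 2, 3, 5 and 6 it was 2.23, 1.93, 1.91 and 1.96, and the libraries of replicates 1 and 4 gave 1.995 and 1.93. All 24M samples but replicate 2 lay below all 3M libraries. The mean went from 2.25 ± 0.06 to 1.998 ± 0.132 (SD, n = 5 and 5), a log2 difference of -0.18 (two-sided exact permutation test, p = 0.0238, adjusted p = 0.0952 over the 4 ratio tests made). With any 1 library left out the unadjusted exact permutation p stayed between 0.0159, the smallest that 4 against 5 samples allow, and 0.0476. Adjusted over the 4 ratio tests it passed under none of the 17 alternatives. At 29M the ratio was 1.44, 1.43 and 1.38 against 1.46, 1.40 and 1.68 at 3M, a log2 difference of -0.09 with overlapping groups (exact permutation p = 0.4, adjusted p = 0.533), in a design of 3 against 3 whose smallest possible p is 0.1. It was -0.02 without 3M replicate 3 and -0.14 without 3M replicate 2. Because of the higher Grin2a the ratios of the 2 library types cannot be set side by side.

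The ratio of Grin1 to the summed GluN2 genes overlapped between the ages in both experiments. It was 1.83 ± 0.12 at 3M and 1.80 ± 0.07 at 24M (log2 difference -0.02, exact permutation p = 0.698, adjusted p = 0.698, n = 5 and 5), and 1.501 ± 0.0808 at 3M and 1.66 ± 0.10 at 29M (log2 difference 0.14, exact permutation p = 0.2, adjusted p = 0.4, n = 3 and 3). These 2 ratios were formed per kb of annotated exon as well. Without 3M single-end replicate 4 the log2 difference at 24M was 0.01 (exact permutation p = 0.698).

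**Figure D4:**
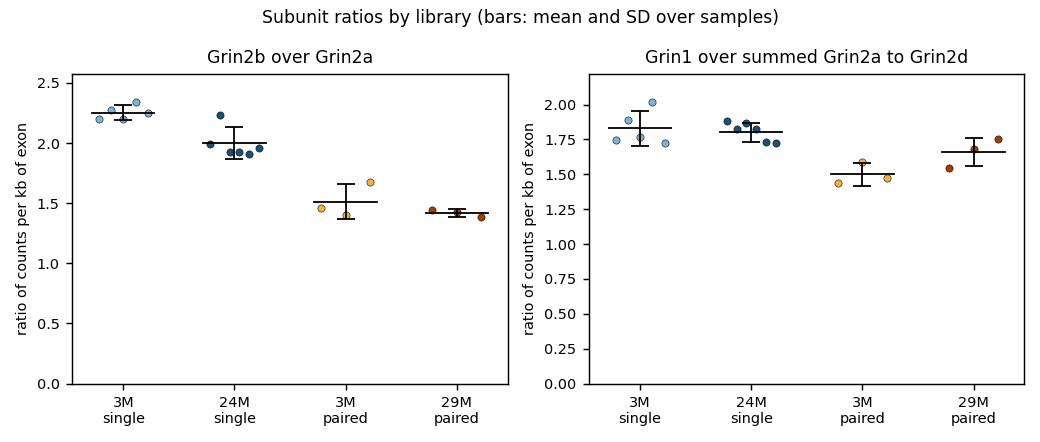
Ratio of Grin2b to Grin2a (left) and of Grin1 to the sum of Grin2a, Grin2b, Grin2c and Grin2d (right), per kb of annotated exon (y axes, from 0), in each library (points) with mean and SD over samples (black). Of the 24M libraries 5 lie at 1.995 or below in the left plot while the 3M single-end libraries lie between 2.20 and 2.34, and the groups overlap in the right plot.

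How the members varied together was described over the 16 samples, after the mean of each library type had been taken from log2(CPM + 0.5). Grin2a and Grin2b went together most closely (Pearson r = 0.860), followed by Grin1 with Grin2d (r = 0.754) and Grin2d with Grin3a (r = 0.705), while Grin2c and Grin3a had the lowest value (r = 0.110). Among 11657 other genes with at least 5 CPM, the most similar pattern to Grin1 was that of Fbxl18 (r = 0.940), before Nova2 and Sidt2. For Grin2a it was Bmpr2 (r = 0.936), with Lrrc7 also among the nearest 3, and for Grin2b it was Tnr (r = 0.926), with Tnc also among the nearest 3. Grin2c was nearest to Speg (r = 0.903), Preb and Pcyt2, Grin2d to Dpysl5 (r = 0.959), Gaa and Igsf8, and Grin3a to Tubb2b (r = 0.931), Oprl1 and Astn1. The values of all genes in a sample share its library, depth, base composition and age.

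The proteins that supply the co-agonist, hold the receptor at the synapse and act on it or downstream of it were followed in 4 lists. Of 13 genes for the making and transport of glycine and D-serine 11 could be tested. None was called at either age, and the medians were -0.11 at 24M and -0.01 at 29M. The largest 24M differences among genes with at least 5 CPM were those of Slc7a10, the glial transporter of D-serine (-0.28, adjusted p = 0.1004), and Shmt2, an enzyme that makes glycine from serine (-0.23, adjusted p = 0.110). At 29M Slc1a4, a transporter of neutral amino acids including serine, fell by 0.25 on the log2 scale (adjusted p = 0.0149; 75.5 ± 1.19 against 63.1 ± 0.67 CPM), and its adjusted p was lost on leaving out replicate 2 of the young or replicates 1 or 3 of the old libraries (up to 0.103). Shmt1 was at 0.27 there (adjusted p = 0.440).

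Among 25 scaffold and trafficking partners 1 was called at 24M, Lin7c, a small adaptor that carries the receptor along microtubules. It rose by 0.52 on the log2 scale (SE 0.12, adjusted p = 0.0272; 106 ± 19.7 against 150 ± 18.1 CPM, overlapping groups). The call was lost in 6 of the 11 fits with 1 library left out, namely without 3M replicates 1, 3 or 4 or 24M replicates 1, 2 or 3, and the difference was 0.23 with offsets for GC content and length (its transcript has 37.3% GC). Neto1, an auxiliary protein of kainate and NMDA receptors, passed the adjusted p alone with 0.32 (adjusted p = 0.0312) and stood at 0.11 with the offsets (adjusted p = 0.581). It was lost without 3M replicates 1, 2 or 4 or 24M replicates 2, 3 or 5 (up to 0.0810).

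In the same list 4 genes, named after their values were seen, passed the adjusted p alone in the other direction at 24M. They were the postsynaptic scaffolds Dlgap3 (-0.32, adjusted p = 0.0134), Dlg4, which codes for PSD-95 (-0.20, adjusted p = 0.0220), and Shank1 (-0.27, adjusted p = 0.0272), and the receptor tyrosine kinase Ephb2 (-0.28, adjusted p = 0.0261). Of all genes tested 2.37% were lower by adjusted p alone at 24M. With offsets for GC content and length Dlg4 was at -0.24 (adjusted p = 0.0201) and Dlgap3 at -0.17 (adjusted p = 0.0295), while Shank1 (-0.12, adjusted p = 0.239) and Ephb2 (-0.20, adjusted p = 0.0677) no longer passed. Dlgap3 passed in each of the 11 fits with 1 library left out. Dlg4 was lost without 3M replicate 1 or 24M replicate 2 (up to 0.0736), Shank1 without 3M replicate 1 or 24M replicates 2 or 6 (up to 0.0853), and Ephb2 without 3M replicates 1 or 3 or 24M replicates 2 or 3 (up to 0.0794). At 29M none of the 25 was called, and by adjusted p alone Dlg2, which codes for PSD-93 and was named after its values were seen (-0.16, adjusted p = 0.0272), and Lin7a (-0.21, adjusted p = 0.0495) were lower. Of all genes tested 0.662% were lower by adjusted p alone there. Dlg2 kept its adjusted p in 1 of the 6 fits with 1 library left out (without 3M replicate 2), with up to 0.130 in the others, and Lin7a in none of them (0.0504 to 0.189). Cask, a partner of the Lin7 proteins, was at -0.19 (adjusted p = 0.0654). The medians of the list were -0.07 and -0.04.

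Of 25 kinases and phosphatases that act on the receptor none was called at either age. At 24M the calcineurin subunit genes Ppp3cb (0.33, adjusted p = 0.0482) and Ppp3r1 (0.33, adjusted p = 0.0591) had the largest differences, with 0.15 and 0.16 under the offsets for GC content and length. Ppp3cb kept its adjusted p in 3 of the 11 fits with 1 library left out (without 3M replicate 5 or 24M replicates 4 or 5) and reached 0.126 in the others. Cdk5r1, the p35 activator of CDK5 and also named after its values were seen, was the only other gene of the list past the adjusted p (-0.16, adjusted p = 0.0308; 0.132 with the offsets), and lost it without 3M replicates 3 or 4 or 24M replicates 2, 3 or 6 (up to 0.0814). At 29M Cdk5r1 was at -0.12 (adjusted p = 0.0963) and Prkcb at -0.10 (adjusted p = 0.279). The medians of the list were -0.05 at 24M and -0.04 at 29M.

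None of 18 genes of calcium and Ras signalling below the receptor was called. Camkk2, a calmodulin-dependent kinase kinase, was at -0.25 at 24M (adjusted p = 0.0528) with all 24M samples below, and Creb1 was at 0.28 (adjusted p = 0.0757). At 29M Creb1 was at -0.22 (adjusted p = 0.107), while Mapk3, which codes for ERK1 (0.16, adjusted p = 0.0382), and Rasgrf1, a Ras exchange factor that binds GluN2B and was named after its values were seen (0.16, adjusted p = 0.0499), passed the adjusted p alone. Mapk3 kept it in 1 of 6 fits with 1 library left out (without 3M replicate 1), Rasgrf1 in none, with adjusted p up to 0.157 and 0.164. The medians were -0.02 at 24M and -0.01 at 29M. Over the 4 lists 1 of 79 genes tested was called at 24M and 0 of 79 at 29M, beside 1.98% and 1.45% of all genes. By adjusted p alone, in either direction, 5.58% of all genes passed at 24M and 2.99% at 29M.

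The other ionotropic glutamate receptors gave the nearest comparison. Of 11 AMPA, kainate and delta receptor genes none was called at either age, and their medians were -0.02 at 24M and -0.09 at 29M. Grik3, a kainate receptor subunit named after its values were seen, was the only one past the adjusted p alone, with -0.36 at 24M (adjusted p = 0.0115), and it passed in each of the 11 fits with 1 library left out.

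Markers of other cells moved beside these values. All 8 microglial markers lay above 0 at both ages, 2 of them called, and their sum was 372 to 429 CPM at 3M and 473 to 502 at 24M, and 352 to 378 at 3M and 455 to 498 at 29M. The 10 astrocyte markers summed to 6223 to 6881 CPM at 3M and 6749 to 7076 at 24M, and to 5814 to 6041 at 3M and 6102 to 6500 at 29M, with Gfap called at both ages (0.66 and 0.80). Gfap was the extreme of the astrocyte list, whose medians were 0.08 at 24M and 0.07 at 29M. The 6 markers of oligodendrocyte precursors summed to 325 to 355 CPM at 3M and 271 to 346 at 24M, and to 284 to 308 at 3M and 254 to 276 at 29M, with Gpr17 called at both ages (-0.997 and -0.953). Gpr17 was the extreme of that list, whose medians were -0.08 at 24M and -0.04 at 29M, with 2 markers above 0 at each age. The sum over 10 interneuron markers was 1234 to 1301 CPM at 3M and 1171 to 1313 at 24M, and 1151 to 1242 at 3M and 1107 to 1177 at 29M, with 1 marker lower by adjusted p at each age. Of the 10 interneuron markers 6 lay below 0 at 24M and 7 at 29M. The 10 pan-neuronal markers summed to 8609 to 8886 CPM at 3M and 8760 to 9581 at 24M, and to 8062 to 8275 at 3M and 7426 to 8092 at 29M. At 24M 6 of the 10 lay below 0 (median -0.06) and 0 passed the adjusted p. At 29M 8 lay below 0 (median -0.07) and 1 was lower by adjusted p. None of these lists had a defining marker at 0. Their part in the differences of Grin2d and Grin3a was not tested.

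**Figure D5:**
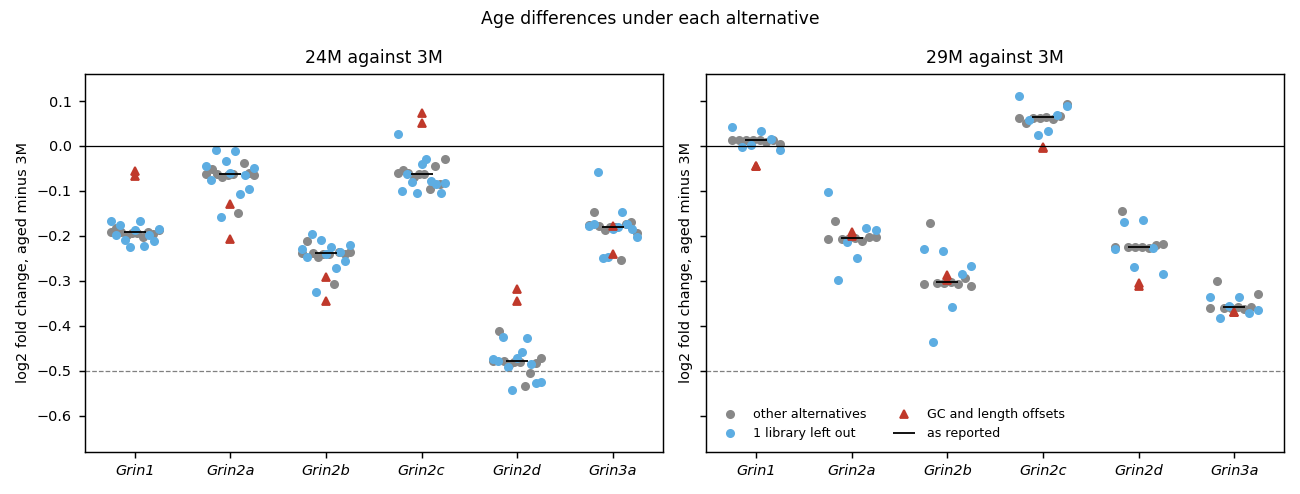
Log2 fold change of the 6 tested subunits (y axis, aged minus 3M) at 24M (left) and 29M (right) as reported (black line), with 1 library left out (light blue), with offsets for GC content and length, alone or with the replicate number as a block (red triangles), and under the other alternatives (grey). Grin2d at 24M stays between -0.54 and -0.32 and Grin3a at 29M between -0.38 and -0.30, while Grin1 at 24M moves to -0.07 and -0.06 with the offsets.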

How the data were processed

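Hippocampal polyA RNA was sequenced after TruSeq library preparation, and the deposited values are raw gene counts, which the authors made with STAR (2.3.0) alignments and HTSeq in its intersection-nonempty mode (build GRCm38.p2 per the submitters' processing notes). The study's methods name this mode as the only non-default parameter of HTSeq and do not name the strand setting, and the gene annotation behind the counts is not given there or in the labels. Counts hold no molecular identifiers. Lines for reads outside genes (8.59% to 15.9% of all reads listed) and other lines that name no gene were left out of library sizes and tests. Gene names, lengths and GC content came from GENCODE M21, which named 36602 of 38355 IDs.

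The 2 aged groups were compared with the 3M group of their library type by edgeR's quasi-likelihood test (4.0.16 under R 4.3.3, TMM scaling, filterByExpr), with Benjamini-Hochberg adjustment over all genes tested. Calls needed both an adjusted p of at most 0.05 and a log2 fold change of 0.5 or more in size. All adjusted p-values of single genes are from this test unless another tool is named. The unequal-effect test used 1 fit of all 4 groups, judged by adjusted p alone. Libraries of replicates 1 and 4 at 24M, compared over genes with 20 to 99 counts, entered as their rounded mean. The labels do not say that replicates came from separate animals, so p-values measure the spread between these samples. Ratios were tested by exact permutation (scipy 1.17.1). Offsets for GC content and length were loess fits per library (span 0.3). The scripts were tested on simulated data.

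The family was defined by name alone, but its choice as the subject, and that of all lists, was made with earlier results of these data known. From each pathway list every called gene was named and, per comparison, the 2 genes with the largest log2 fold change among those with at least 5 CPM, and for each member the 3 genes of most similar pattern; 1 such gene and 2 member sequences are not reported here. Alternatives were DESeq2 (1.42.0), other scalings and filters, thinning to equal depth, the replicate block, the handling of the 24M pair, other gene lengths and each library left out.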

Additional observations from a re-analysis of the deposited data

Results flagged for a closer look

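Of 38 groups of 4 to 10 samples examined for a sample far from the others, 3 held one by Dixon's criterion at the 95% level, and chance alone gives about 1 in 20. Grin2c stood at 62.6 CPM in 3M single-end replicate 1 while the other 3M single-end libraries lay between 45.3 and 49.97 CPM, and without that library the 24M difference of Grin2c was 0.03 in place of -0.06. The ratio of Grin2b to Grin2a was 2.23 in 24M replicate 2 while the other 24M libraries outside the merged pair lay between 1.91 and 1.96, and without it the log2 difference from 3M was -0.22 in place of -0.18. The summed level of 12 striatal markers was 756 CPM in 3M single-end replicate 4 and 242 to 310 CPM in the others of its group, and that library also held the lowest 3M single-end levels of Grin2a, Grin2b and Grin3a. The part of tissue outside the hippocampus in these levels was not tested.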

How the results depend on the processing

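Of 384 alternative values of member log2 fold changes, 344 kept their direction and side of the adjusted p, 17 lost the adjusted p, 11 gained it and 12 changed sign, none of them past the adjusted p before or after. In the unequal-effect fit by DESeq2, Grin2a, Grin2c, Grin2d and Grin3a were given no adjusted p, and this was counted as not passing. With the offsets for GC content and length, without and with the block, Grin2c was at 0.0737 and 0.0510 at 24M and at -0.00419 and -0.00159 at 29M, and Grin1 at 29M was at -0.0438 in both. The difference between the ages was -0.0915 for Grin2c and -0.00993 for Grin2d with the offsets. With 1 library left out Grin2c ran from -0.104 to 0.0271 at 24M, Grin1 from -0.00854 to 0.0413 at 29M, and the difference between the ages of Grin2b from -0.212 to 0.0183. By adjusted p and fold the members called at 24M were 2 with no fold threshold and 1 after thinning (0 to 1 with 1 library left out), and by adjusted p alone 1 after thinning and 1 without 24M replicates 1 and 4 (0 to 2 with 1 library left out). At 29M it was 1 member with no fold threshold (0 in each fit with 1 library left out), and by adjusted p alone 3 with no filter, 0 with all 4 groups in 1 fit and 2 with offsets for GC content and length (1 to 3 with 1 library left out).

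Over all genes, 310 were called at 24M as reported, 119 by DESeq2 with a zero-centred prior, 518 with all 4 groups in 1 fit, 875 with no fold threshold, 163 without 24M replicates 1 and 4, and 119 to 568 with 1 library left out (119 without 24M replicate 2, 186 and 195 without 3M replicates 1 and 4, 568 without 3M replicate 5). At 29M 219 were called as reported, 24 with the prior, 441 with no filter, 86 with all 4 groups in 1 fit, 451 with no fold threshold, and 124 to 221 with 1 library left out (125 and 124 without 29M replicates 1 and 3). The pathway lists held 8 genes at 24M and 5 at 29M with no fold threshold, and 0 at 24M with the prior, with the offsets or without the 24M pair (0 to 1 at 24M and 0 at 29M with 1 library left out). The unequal-effect test passed 1 gene by DESeq2 and 0 to 92 with 1 library left out, and under no alternative a member that was given an adjusted p.

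Same-numbered samples deviated together with correlations of -0.315 to 0.0764 at 24M and -0.217 to 0.225 at 29M. Differently numbered samples gave -0.277 to 0.367 and -0.364 to 0.410. The replicate numbers thus showed no sign of pairing, but with so few samples this cannot exclude a shared block. With the number as a block 0 members passed the adjusted p at 24M and 2 at 29M, or 1 and 3 with the offsets as well, and 83 genes were called at 24M, or 134 with the offsets, with 0 pathway genes in both block fits. The blocked exact permutation p of the 24M ratio of Grin2b to Grin2a was 0.125, the smallest that 4 pairs allow. The log2 difference in the ratio of Grin1 to the GluN2 genes at 24M was 0.0300 with the block and ran from -0.0420 to 0.0147 with 1 library left out.

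The 3M single-end shares were, per kb of coding exon, 5.64% for Grin2a, 17.4% for Grin2b, 5.37% for Grin2c, 2.68% for Grin2d and 0.0337% for Grin3b. With no length they were 52.4% for Grin1, 7.29% for Grin2a, 22.7% for Grin2b, 5.88% for Grin2c, 3.13% for Grin2d and 0.0301% for Grin3b. Per kb of the longest coding transcript, an alternative chosen after seeing the data, they were 73.7%, 3.01%, 5.70%, 7.22%, 3.47% and 0.0552%, and Grin2c gained 0.603 points at 29M. These follow from the lengths themselves. The cause of the other movements was not tested. Depth limited Grin3b, with at most 12 reads per library.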
